A study of Homo sapiens with 54 samples.

Results

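The genes described here are those of MHC class II antigen presentation and its master regulator. The 10 genes sought by symbol were CIITA, the invariant chain CD74, the classical chains HLA-DRA, HLA-DRB1, HLA-DPA1, HLA-DPB1, HLA-DQA1, and HLA-DQB1, and the peptide exchange chains HLA-DMA and HLA-DMB. Of these, 6 had a row among the 31835 genes of the UMI table. HLA-DPA1, HLA-DPB1, HLA-DQA1, and HLA-DQB1 had no row and were not analyzed here. Every row of the UMI table held at least 1 UMI. For these 4 genes, no UMIs in any library and a gene left out of the annotation cannot be told apart.

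MHC class II molecules present peptides from endocytosed proteins to CD4+ T cells. Their α and β chains assemble with CD74, which fills the groove until proteases of the endosome degrade it, and the HLA-DM heterodimer then exchanges the remaining fragment for peptide. CIITA does not bind DNA itself but is recruited to class II promoters by a complex of RFX, NF-Y, and CREB proteins, and IL-4 is a classical inducer of class II on B cells.

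RNA was sequenced from OCI-Ly1, an established human B cell lymphoma line, transduced to express Flag-tagged STAT6 from a CMV promoter. STAT6 is the transcription factor that carries the IL-4 signal to the nucleus. The construct encoded STAT6 WT or 1 of the mutants D419G, D419N, or N421K, which lie in the DNA-binding domain and are together called STAT6 MUT. All cells were pulsed with 10 ng/ml of IL-4 over 20 min and were then kept in IL-4 free medium for 2, 4, or 8 h. Each time point had 9 STAT6 WT libraries and 3 libraries of each mutant line, 54 in all. OCI-Ly1 also carries a STAT6 variant of its own in the DNA-binding domain, which all groups share. The 54 libraries include none from before IL-4 and none with an empty vector, so that values after the pulse cannot be set against a resting level. How many independent transductions were made is not stated, and p-values therefore measure the spread between these libraries, which may in part be technical. The 3 time points lay in different plate rows, and time and row cannot be told apart.

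The libraries were made with prime-seq, which counts each mRNA molecule once at its 3′ end by a unique molecular identifier (UMI). They held 161518 to 2978715 UMIs (median 885258.5). Totals below 0.5 of this median were found in 8 libraries, of which 6 belonged to STAT6 MUT and 2 to STAT6 WT. Levels are given as CPM, that is, UMIs relative to a library total corrected by the TMM factor. Of 8 B cell markers, 8 had a median of at least 1 UMI, and their summed level was 2790 to 3646 CPM in STAT6 WT (median 3111) and 2271 to 3617 CPM in STAT6 MUT (median 2729). Of 8 T and NK cell markers, 4 had a row, with a sum of 0 to 5.16 CPM per library. Of 9 myeloid markers, 5 had a row, with a sum of 0 to 7.80 CPM.

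The promoters of the 3 counted genes that encode the presentation machinery are shown because class II genes are recognized by a shared promoter module. The module holds an X1 box, bound by RFX, and a Y box, an inverted CCAAT bound by NF-Y. The windows run from 250 bases before to 50 after the start site (RefSeq, GRCh38.p14), and 8 of the 10 genes, all but CIITA and HLA-DRA, matched a window. Capitals mark the X1 box, searched as CC, any base, AG, 2 bases of any kind, AC, any base, and GATG, and the CCAAT box, searched as CCAAT, both on either strand.

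CD74 (chr5:150412861-150413160, minus strand): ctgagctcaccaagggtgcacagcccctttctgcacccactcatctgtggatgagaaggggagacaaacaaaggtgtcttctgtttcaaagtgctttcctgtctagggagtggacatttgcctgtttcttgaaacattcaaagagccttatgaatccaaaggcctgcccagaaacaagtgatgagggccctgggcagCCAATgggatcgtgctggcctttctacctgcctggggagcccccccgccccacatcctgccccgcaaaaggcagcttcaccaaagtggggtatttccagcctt

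HLA-DMB (chr6:32940979-32941278, minus strand): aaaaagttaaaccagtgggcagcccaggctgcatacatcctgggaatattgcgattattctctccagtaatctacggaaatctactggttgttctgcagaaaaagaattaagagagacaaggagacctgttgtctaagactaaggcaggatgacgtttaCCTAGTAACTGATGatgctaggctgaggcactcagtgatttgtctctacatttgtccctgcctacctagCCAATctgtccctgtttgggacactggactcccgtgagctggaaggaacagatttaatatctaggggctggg

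HLA-DMA (chr6:32953048-32953347, minus strand): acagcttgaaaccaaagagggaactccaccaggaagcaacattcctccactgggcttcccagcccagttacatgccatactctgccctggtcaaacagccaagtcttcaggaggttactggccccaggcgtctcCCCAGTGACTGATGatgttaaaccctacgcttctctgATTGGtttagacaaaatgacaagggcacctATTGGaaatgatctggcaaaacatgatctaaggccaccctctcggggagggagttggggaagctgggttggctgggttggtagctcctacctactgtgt

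The X1 letters were found in HLA-DMB (CCTAGTAACTGATG, first base at -91 relative to the start site) and in HLA-DMA (CCCAGTGACTGATG, at -116). HLA-DQB1, which had no row, also held them (CCCAGAGACAGATG, at -124). Of all 35116 promoter windows, 22 (0.0626%) held these letters. The CD74 window held no X1 match. The CCAAT letters lay in forward orientation at -53 in CD74 and at -22 in HLA-DMB. They lay on the other strand, the inverted orientation of the Y box, at -79 and -49 in HLA-DMA. They are common, with a match in 34.6% of all windows. A STAT6 site, searched as TTC and GAA with 4 bases between them on either strand, was present among the member windows in HLA-DMB alone (TTCTGCAGAA, at -159, not capitalized above) and in 6.44% of all windows. No marked stretch overlapped another. A match is a description of letters and does not show binding.

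The classical class II chains were barely counted. HLA-DRA (chr6:32439878-32445046) had 3 UMIs in all, 1 each in N421K libraries of 2, 4, and 8 h. HLA-DRB1 (chr6:32577902-32589848) also had 3, 1 each in a STAT6 WT library of 2 h and in 2 STAT6 WT libraries of 8 h. A count of 0 allows up to 3 UMIs, which is 3.39 CPM in a library of median depth.

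These low counts cannot be read as an absence of class II RNA. Many other genes around them also had few UMIs or no row. Of 183 protein-coding genes of the HLA region (chromosome 6, 28.5 to 33.5 Mb, GRCh38, GENCODE annotation), 46 (25.1%) had a median of at least 1 UMI per library. In the flanks of 5 Mb on either side, the shares were 49.1% of 108 genes and 65.1% of 63 genes, and over all 20046 protein-coding genes the share was 52.7%. The window also holds genes not typical of B cells, such as olfactory receptor genes, which had no row. The shares were not adjusted for the kinds of gene in each window. Genes that most cells express were near 0 in the region. The tubulin gene TUBB had 19 UMIs over the 54 libraries, the RNA helicase DDX39B had 1, and the splicing factor LSM2 had 16. The class I heavy chain HLA-B had 6, and HLA-C had 47. Others were well counted, with 154588 UMIs for the ribosomal protein RPS18, 5150 for ABCF1, and 4367 for BRD2. These region genes were chosen after their counts were seen. The cause of the low counts was not tested, and how the class II chains differed between the STAT6 lines was not measurable.

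**Figure D1:**
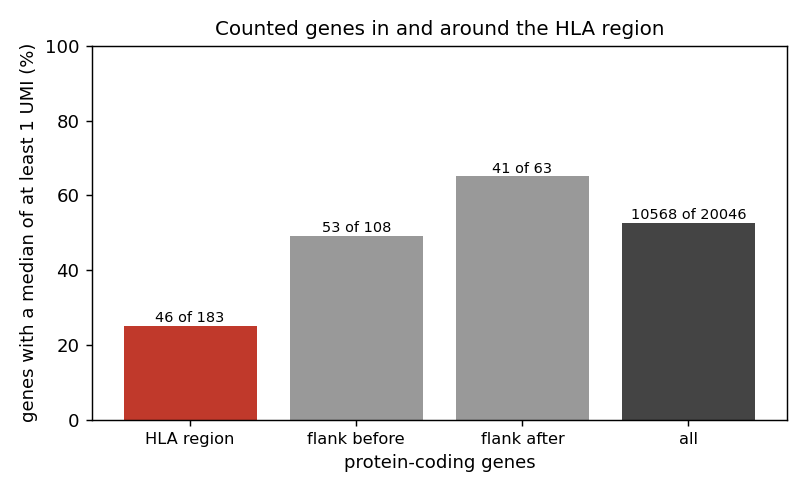
Share of protein-coding genes with a median of at least 1 UMI per library (%), for the HLA region, its flanks of 5 Mb, and all protein-coding genes, with the numbers above the bars. The HLA region, at 25.1%, lies below both flanks and below the 52.7% of all genes. The shares are not adjusted for the kinds of gene in each window.

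HLA-DM, the peptide exchange factor, was counted at low depth. Both of its genes also lie in the HLA region, and the cause of their low counts was not tested. HLA-DMB (chr6:32934629-32941028) had 196 UMIs in all, at least 1 in 49 of 54 libraries, and 0 to 14 per library (median 3). HLA-DMA (chr6:32948613-32969094) had 100 UMIs, at least 1 in 37 libraries, and 0 to 8 per library (median 1). HLA-DMA overlaps BRD2 on the opposite strand, at the start of both genes and away from the 3′ ends that prime-seq counts. Whether the counting used the strand is not given, and whether the HLA-DMA UMIs include molecules of BRD2 was not tested.

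The HLA-DMB level was 4.10 ± 2.25 CPM in STAT6 WT and 3.03 ± 2.45 CPM in STAT6 MUT (SD, n = 27 libraries each). It had at least 1 UMI in each STAT6 WT library, and the 5 libraries with 0 were mutant, 2 of D419G, 2 of D419N, and 1 of N421K. Those 5 libraries held 161518, 175878, 191586, 399227 and 445800 UMIs in all, and they were among the 9 shallowest of the 54. At 1 to 14 UMIs per STAT6 WT library, the ranges overlapped throughout. HLA-DMA was at 1.42 ± 1.35 CPM in STAT6 WT and 2.00 ± 1.78 CPM in STAT6 MUT. Both failed the count filter, so that their tests come from the fit without it. The log2 fold change of STAT6 MUT across time points was -0.26 (95% interval -0.73 to 0.20, adjusted p = 0.579) for HLA-DMB and 0.18 (-0.42 to 0.78, adjusted p = 0.804) for HLA-DMA. Over time, the widest change was that of HLA-DMA in STAT6 MUT from 2 h to 8 h (log2 fold change -1.33, standard error 0.52, adjusted p = 0.0823), whose 2 h libraries held 0 to 6 UMIs and 8 h libraries 0 to 2. Neither gene passed the threshold across time points or between time points.

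CD74, the invariant chain (ENSG00000019582, chr5:150401637-150412969, minus strand), was lower in STAT6 MUT than in STAT6 WT. It lies outside the HLA region and was counted deeply, with 141 to 2550 UMIs per library (median 681). Across time points its level was 760.5 to 981.6 CPM in STAT6 WT (median 868) and 620.3 to 946.7 CPM in STAT6 MUT (median 757). The means were 863 ± 46.4 CPM and 760.3 ± 84.9 CPM (SD, n = 27 libraries each). The difference was small, a log2 fold change of -0.20 (standard error 0.0337, 95% interval -0.26 to -0.13), or a ratio of 0.872, and passed the test (adjusted p = 5.18e-06 over all genes, Benjamini-Hochberg, in edgeR). In bulk RNA, fewer cells that express a gene and less RNA per cell cannot be told apart. The same test called 13.4% of the 9261 genes tested, so that a call in itself was common.

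**Figure D2:**
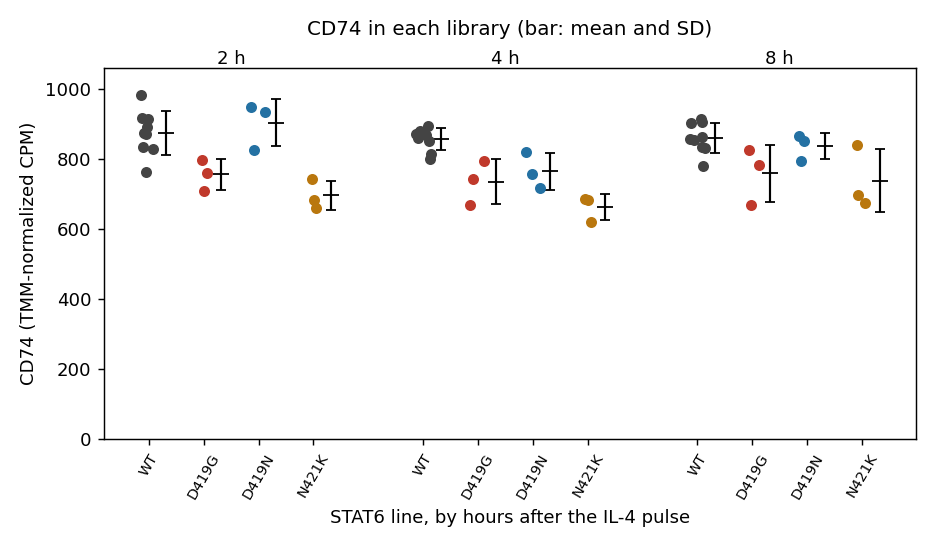
CD74 level of each library (points, TMM-normalized CPM) by STAT6 line at 2, 4, and 8 h after the IL-4 pulse, with mean and SD beside the points (n = 9 for STAT6 WT, n = 3 for each mutant). The N421K libraries at 2 and 4 h lie below every STAT6 WT library, whereas D419N at 2 h lies within their range.

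At 2 h, CD74 was 760.5 to 981.6 CPM in STAT6 WT (median 873). The libraries of D419G were at 708.9, 758.7, and 797.4 CPM, those of D419N at 824.7, 934.3, and 946.7 CPM, and those of N421K at 659.9, 682.8, and 741.5 CPM. Of the 9 mutant libraries, 5 were below each STAT6 WT library, 3 of N421K and 2 of D419G. On the log2 scale the difference was -0.17 (standard error 0.0582), which missed the threshold (adjusted p = 0.0528), where 8.59% of genes were called. Without D419N it was -0.28 and called (adjusted p = 0.000443).

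At 4 h, the groups were furthest apart. STAT6 WT spanned 799 to 893.5 CPM (median 868). D419G was at 668.4, 741, and 794 CPM, D419N at 714.7, 757, and 818.5 CPM, and N421K at 620.3, 682.5, and 684.5 CPM. All but 1 of the 9 mutant libraries (8) were below every STAT6 WT library, and the exception was a D419N library. STAT6 MUT differed by -0.26 (log2, standard error 0.0536) and was called (adjusted p = 0.00175), against 3.97% of all genes. Without the N421K line it was -0.19 and not called (adjusted p = 0.121).

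At 8 h, STAT6 WT was at 778.1 to 912.8 CPM (median 857). D419G was at 667.1, 783.2, and 823.9 CPM, D419N at 793.6, 851.2, and 864 CPM, and N421K at 674.1, 696.8, and 839.6 CPM. Only 3 mutant libraries were below all STAT6 WT libraries, and the groups overlapped. A log2 fold change of -0.16 (standard error 0.0604) was not called (adjusted p = 0.189), and 1.44% of genes were. In exact permutation tests of the mean log2 CPM (two-sided, 9 against 9 libraries, 18 such tests over the 6 counted genes, p not adjusted), CD74 had p = 0.0356 for 2 h, p = 0.000165 for 4 h, and p = 0.0147 for 8 h. Whether the difference itself changed between time points was tested by the interaction of genotype and time point, which gave no call (adjusted p = 0.857, with 0.957% of genes called).

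The mutant lines differed in CD74. Across time points, the mean level was 698 ± 61.9 CPM in N421K, 749 ± 57.1 CPM in D419G, 834 ± 75.9 CPM in D419N (SD, n = 9 each), and 863 ± 46.4 CPM in STAT6 WT (n = 27). Against STAT6 WT, N421K was at -0.32 on the log2 scale (standard error 0.0428, adjusted p = 5.91e-09, with 13.7% of genes called) and D419G at -0.22 (standard error 0.0441, adjusted p = 0.000429, with 5.38% called). D419N was at -0.06 (95% interval -0.14 to 0.03, adjusted p = 0.627, with 2.75% called). These 3 comparisons share the STAT6 WT libraries.

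Set against each other, the lines gave a joint test that was called (adjusted p = 0.00225), as for 2.39% of genes. CD74 was lower in N421K than in D419N, at -0.26 on the log2 scale (standard error 0.0527, adjusted p = 0.00073, with 1.88% of genes called). The neighbors in this order were not separated. D419N against D419G was at 0.16 (95% interval 0.05 to 0.27, adjusted p = 0.224, with 0.196% called) and N421K against D419G at -0.10 (-0.21 to 0.00, adjusted p = 0.463, with 1.32% called). Without replicate number 1, the D419G value was -0.14 (adjusted p = 0.194), N421K against D419N was no longer called (adjusted p = 0.111), and the joint test had an adjusted p of 0.186. DESeq2 called D419N against D419G (log2 fold change 0.16, adjusted p = 0.0422).

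Over time, CD74 hardly moved. In STAT6 WT, the log2 fold change was -0.03 from 2 h to 4 h (95% interval -0.12 to 0.06, adjusted p = 0.761), 0.01 from 4 h to 8 h (-0.08 to 0.10, adjusted p = 0.914), and -0.01 from 2 h to 8 h (-0.10 to 0.08, adjusted p = 0.862). Of the genes tested in STAT6 WT, 13.0%, 5.88%, and 30.7% were called in these comparisons. In STAT6 MUT, the changes were -0.11, 0.11, and -0.0001 (adjusted p = 0.252, 0.23, and 1.0), with 8.43%, 11.9%, and 34.1% of genes called.

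The B cell markers and the library depth are set beside the CD74 difference here. Of the 8 B cell markers, 4 were also lower in STAT6 MUT across time points, where 13.4% of all tested genes were called in either direction (list median log2 fold change -0.18, against 0.001 over all genes), and by edgeR 0 were higher (1 at an unadjusted p under 0.05, 0 by DESeq2). By line, 4 of them were lower in D419G, 3 in D419N, and 4 in N421K, with 1 higher in N421K, beside 5.38%, 2.75%, and 13.7% of all genes called in those lines. CD74 itself was called lower in D419G and N421K but not in D419N. Across time points, the largest falls among the markers were those of the kinase BLK (-0.34), the B cell receptor modulator CD22 (-0.33), and the B cell receptor chain CD79B (-0.28). Once the mean of each line and time point was removed, CD74 also varied with depth (r = -0.34 with the log2 library total, n = 54 libraries). Without the 8 libraries of lowest depth, the CD74 difference was as large (-0.23, adjusted p = 2.32e-07). The part of the B cell markers in the result was not tested.

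**Figure D3:**
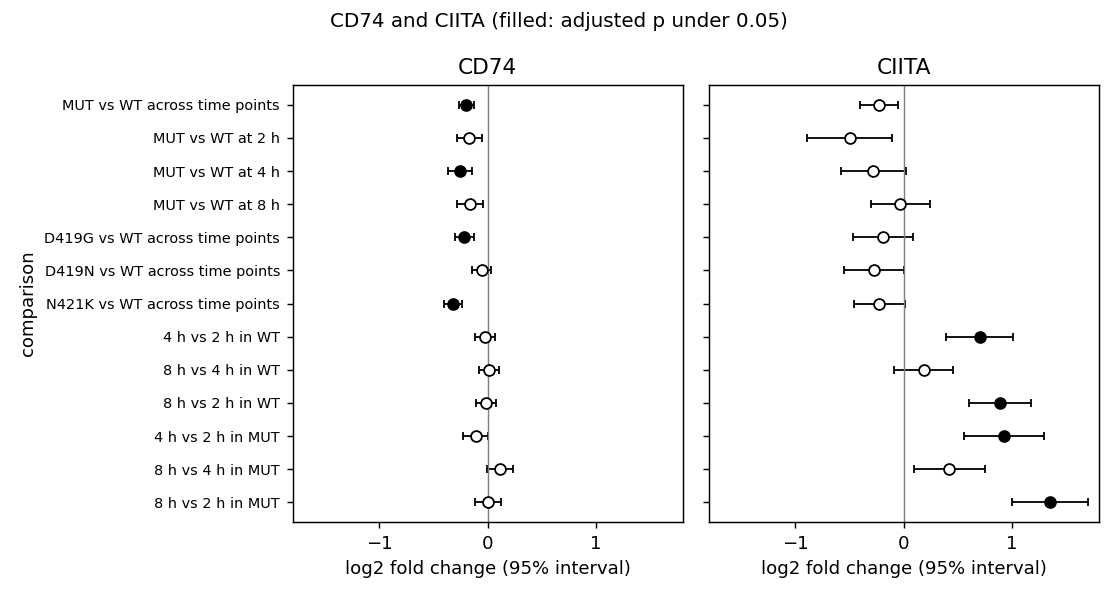
Log2 fold changes of CD74 and CIITA in each comparison (points, with 95% intervals), filled where the adjusted p was under 0.05. CD74 is filled for STAT6 MUT against STAT6 WT across time points and at 4 h and for D419G and N421K, whereas CIITA is filled for 4 h and 8 h against 2 h in both genotypes.

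CIITA, the class II transactivator (ENSG00000179583, chr16:10866222-10943021, plus strand), rose with time after the IL-4 pulse. It was detected in all 54 libraries at 1 to 85 UMIs (median 18.5), so that its values carry far more counting error than those of CD74. In STAT6 WT it was 6.23 to 22.5 CPM at 2 h (median 14.9), 17.6 to 30.9 CPM at 4 h (median 24.4), and 20.9 to 32.2 CPM at 8 h (median 27.5). The means were 13.9 ± 4.61, 24.2 ± 3.70, and 26.6 ± 4.32 CPM (SD, n = 9 each). Of the 9 libraries of 8 h, 7 were above all 9 of 2 h. The rise passed the test from 2 h to 4 h (log2 fold change 0.70, standard error 0.154, adjusted p = 0.000775) and from 2 h to 8 h (0.89, standard error 0.144, adjusted p = 1.72e-06, a comparison in which 30.7% of genes were called), but not from 4 h to 8 h (0.19, 95% interval -0.09 to 0.46, adjusted p = 0.474).

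In STAT6 MUT, CIITA was 3.51 to 14.3 CPM at 2 h (median 9.85), 16.0 to 28.2 CPM at 4 h (median 18.9), and 11.8 to 32.6 CPM at 8 h (median 25.9). All 9 libraries of 4 h were above all 9 of 2 h. The log2 fold change was 0.93 from 2 h to 4 h (standard error 0.185, adjusted p = 0.000267), 0.42 from 4 h to 8 h (standard error 0.163, adjusted p = 0.0774), and 1.35 from 2 h to 8 h (standard error 0.175, adjusted p = 8.71e-09). Without replicate number 1, the change from 2 h to 4 h was 0.67 and not called (adjusted p = 0.128). A genotype by time point interaction was not called for CIITA (adjusted p = 0.569), so that a steeper rise in one genotype was not shown. As the time points lay in different plate rows, this rise and a difference between rows cannot be told apart.

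**Figure D4:**
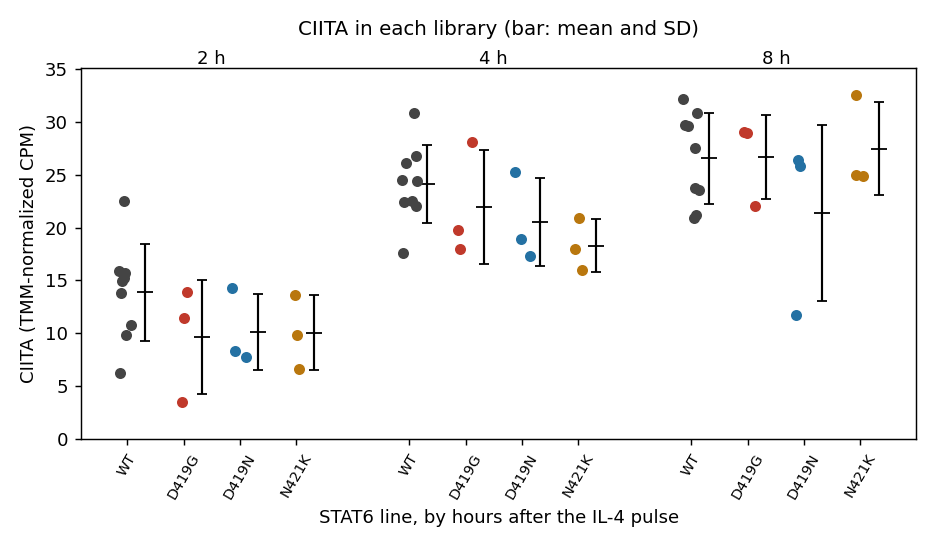
CIITA level of each library (points, TMM-normalized CPM) by STAT6 line at 2, 4, and 8 h after the IL-4 pulse, with mean and SD beside the points (n = 9 for STAT6 WT, n = 3 for each mutant). The mean of each line is lowest at 2 h, and the D419N library at 11.8 CPM is the lowest of the 8 h mutant libraries.

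Between the genotypes, CIITA was not called. At 2 h, D419G was at 3.51, 11.5, and 13.9 CPM, D419N at 7.75, 8.26, and 14.3 CPM, and N421K at 6.58, 9.85, and 13.7 CPM. All 9 values were below the STAT6 WT median, but 1 of them lay below the whole STAT6 WT range. STAT6 MUT was at -0.50 on the log2 scale (95% interval -0.89 to -0.10, adjusted p = 0.102).

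At 4 h, the mutant libraries were at 17.9, 19.8, and 28.2 CPM (D419G), 17.3, 18.9, and 25.2 CPM (D419N), and 16.0, 17.9, and 20.9 CPM (N421K). Of these, 7 of 9 were below the STAT6 WT median. Their log2 fold change was -0.28 (95% interval -0.58 to 0.02, adjusted p = 0.39).

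At 8 h, D419G was at 22.1, 29.0, and 29.0 CPM, D419N at 11.8, 25.9, and 26.5 CPM, and N421K at 24.89, 24.99, and 32.57 CPM. The groups overlapped, although 1 mutant library lay below and 1 above every STAT6 WT library. The log2 fold change was -0.03 (95% interval -0.30 to 0.25, adjusted p = 0.966). In the exact permutation tests, CIITA had p = 0.0765 for 2 h, p = 0.0415 for 4 h, and p = 0.591 for 8 h.

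Across time points, the CIITA level was 21.5 ± 6.93 CPM in STAT6 WT and 18.4 ± 7.86 CPM in STAT6 MUT (SD, n = 27 each), spreads that include the change with time. The log2 fold change was -0.23 (95% interval -0.41 to -0.05), which was not called (adjusted p = 0.0752, edgeR). By line it was -0.19 in D419G (adjusted p = 0.524), -0.28 in D419N (adjusted p = 0.370), and -0.22 in N421K (adjusted p = 0.238), and the joint test among the lines was not called (adjusted p = 0.967). The differences between lines had 95% intervals of -0.45 to 0.27 for D419N against D419G, -0.36 to 0.30 for N421K against D419G, and -0.28 to 0.39 for N421K against D419N.

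CIITA and CD74 had a low correlation within groups. After the mean of each line and time point was removed, their log2 CPM had r = -0.12 over the 54 libraries. Both carry a depth term, of opposite sign (r = 0.34 of CIITA and -0.34 of CD74 with the log2 library total). CIITA had a median of 18.5 UMIs, and counting error at that depth can hide a shared variation. Among 6926 other genes with a mean of at least 20 UMIs, the genes most like the mean of both were MANF (r = 0.60), ENSG00000260335 (0.59), PRADC1 (0.59), LAMTOR4 (0.57), and VPS29 (0.56), and the gene at rank 100 had r = 0.41. Those most like CIITA alone were ENSG00000255074 (0.60), TMEM268 (0.56), and RPL18P13 (0.56), the last a pseudogene whose counts may come from its parent gene.

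Of the genes that build the class II promoter complex, 13 of 14 were tested, and 4 were higher in STAT6 MUT across time points, beside 13.4% of all genes called (list median log2 fold change 0.08, against 0.001 over all genes). By edgeR 0 were lower (1 at an unadjusted p under 0.05, 0 by DESeq2). The acetyltransferase CREBBP had a log2 fold change of 0.42 (adjusted p = 3.8e-06), its paralog EP300 of 0.22 (adjusted p = 0.000956), and the CIITA-binding zinc finger protein ZXDC of 0.25 (adjusted p = 0.0445). The ZXDC call was lost in 16 of 23 alternatives, with adjusted p up to 0.565. The RFX subunits themselves were not called. RFX5 was at -0.14 (adjusted p = 0.14) and RFXANK at -0.09 (adjusted p = 0.324), whereas RFXAP, with 198 UMIs in all, failed the count filter. By line, 1 gene of the list was higher in D419G and 2 in N421K, and in D419N 0 were called by edgeR (2 higher at an unadjusted p under 0.05, 0 by DESeq2), beside 5.38%, 13.7%, and 2.75% of all genes called.

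Transcription factors that act on CIITA were called in both directions. Of 12 tested regulators, 6 were higher and 2 lower across time points (median 0.12), beside 13.4% of all genes called. On the log2 scale, IRF4, a B cell activation factor, rose by 0.87 (adjusted p = 1.07e-06) and IRF1, an interferon-induced factor, by 0.41 (adjusted p = 0.0031). By line, 4 were higher and 2 lower in D419G, 2 were higher in D419N, and 5 were higher and 2 lower in N421K, where 5.38%, 2.75%, and 13.7% of all genes were called.

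Genes of peptide processing and loading were split. Of 10 tested, 1 was higher and 3 lower (median 0.002), beside 13.4% of all genes called. The cathepsin CTSZ fell by 0.43 on the log2 scale (adjusted p = 0.0176) and the endosomal thiol reductase IFI30 had a log2 fold change of -0.40 (adjusted p = 0.0385), a call that was lost in 11 of 23 alternatives (-0.58 to -0.22, adjusted p up to 0.604), whereas CTSS, the cathepsin that makes the last cuts in the invariant chain, rose by 0.22 (adjusted p = 0.00817). In N421K, where 13.7% of all genes were called, 1 was higher and 1 lower. In D419G and D419N, where 5.38% and 2.75% of all genes were called, 0 were called by edgeR and by DESeq2, and at an unadjusted p under 0.05, 2 were higher and 2 lower in D419G and 2 higher and 1 lower in D419N.

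Of 12 tested genes of class II traffic and turnover, 1 was higher and 3 lower (median 0.004), beside 13.4% of all genes called. CD83, which stabilizes class II at the surface, had a log2 fold change of 0.34 across time points (adjusted p = 8.32e-05). Its mean level in STAT6 MUT was below that of STAT6 WT at 2 h and above it at 8 h. The tetraspanins CD53 and CD37 fell by 0.19 and 0.17 (adjusted p = 0.00179 and 2.93e-05). By line, 1 was higher and 1 lower in D419G, 1 was lower in D419N, and 1 was higher and 2 lower in N421K, beside 5.38%, 2.75%, and 13.7% of all genes. Of the CD74 partners, 2 of 4 were tested, and CXCR4, a chemokine receptor that pairs with CD74, rose by 0.21 (adjusted p = 0.00995, list median 0.12). It was called higher in D419G and N421K.

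Across time points 13.4% of all genes were called, against which the following counts are read. Of 8 co-stimulatory genes, 5 were tested, with 2 higher and 1 lower (median -0.05). The adhesion molecule ICAM1 rose by 0.64 (adjusted p = 0.000652), and the ICOS ligand ICOSLG fell by 0.33 (adjusted p = 0.000986). TNFRSF14 was at 0.30 (adjusted p = 0.0461), a call that was lost in 14 of 23 alternatives, with adjusted p up to 0.333. Of 10 genes of the IL-4 response, 5 passed the count filter and were tested, with 3 higher and 1 lower (median 0.35). Without the filter, 10 were tested, with 6 higher and 2 lower (median 0.53), where 1169 of 31835 genes were called. Among the 5 tested with the filter, CISH, a cytokine feedback inhibitor, had the largest log2 fold change (1.45, adjusted p = 9.19e-09). It was followed by the IgE receptor FCER2 (0.39, adjusted p = 0.0173) and the feedback inhibitor SOCS1 (0.35, adjusted p = 4.25e-05). Across the lines, 2 of these were higher in D419G, 1 in D419N, and 3 in N421K, with 1 lower in D419G and 1 in N421K, where 5.38%, 2.75%, and 13.7% of all genes were called in the lines. Of 14 class I genes, 5 were tested and 1 was called, the peptidase ERAP2, which was higher (0.37, adjusted p = 0.00235, list median 0.08).

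Many of these counts fell without N421K, and so did the calls over all genes. Of all genes tested, 586 of 9207 were called without that line, against 1237 of 9261 with it. Without that line, the numbers higher and lower were 1 and 0 in the promoter complex, 3 and 1 among the regulators, 0 and 1 in processing, 1 and 1 in traffic, 0 and 1 in co-stimulation, and 2 and 0 in the IL-4 response by edgeR, a fit with fewer libraries, and CXCR4 and ERAP2 were no longer called. The B cell markers stayed at 0 and 4 without N421K. Without replicate number 3, where 813 of 9403 genes were called, the promoter complex also had 1 higher, and the CXCR4 call was lost. CXCR4 was also not called without D419G. Without the 8 libraries of lowest depth, 1164 of 9525 genes were called. There, 2 genes of the promoter complex were higher, and 1 co-stimulatory gene was higher and 1 lower.

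The germinal centre markers had 2 called of 5 tested, beside 13.4% of all genes, both higher (median 0.18), BCL6 (0.40, adjusted p = 1.47e-12), the factor that holds germinal centre identity, and MME (0.28, adjusted p = 8.53e-07), which is CD10. By edgeR 0 were lower (2 at an unadjusted p under 0.05, 0 by DESeq2). The median of the list was -0.03 in D419G, -0.09 in D419N, and 0.30 in N421K, and -0.06 across time points without N421K, where 2 were called higher. Of 4 tested plasma cell markers, 1 was higher and 1 lower (median -0.10), XBP1 (0.64, adjusted p = 2.75e-13), a factor of the secretory program, and MZB1 (-0.14, adjusted p = 0.0199). Among other class II chains, HLA-DOB had 18 UMIs in 15 libraries, and HLA-DOA and HLA-DRB5 had no row. None of the 7 genes of that list passed the count filter.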

How the data were processed

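UMI counts per gene and well were deposited by the authors without normalization or pooling. Each of the 31835 rows held at least 1 UMI, and whether genes without any UMI were left out is not given. They had processed prime-seq reads, sequenced on an Illumina HiSeq system, with the Drop-seq pipeline. The submitters' processing notes name hg38. For the aligner, the annotation, and strand, nothing is given in the sources used here, and counts of overlapping or near-identical genes are uncertain. A symbol was found for 30959 of 31835 identifiers. Every row had an identifier (0 exceptions), and each column was used (0 left out).

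Groups came from the sample labels. The counts were tested with R 4.3.3 and edgeR 4.0.16 (quasi-likelihood test, TMM normalization, filterByExpr given the design, Benjamini-Hochberg adjustment over all genes tested, threshold 0.05). Across time points and for the lines, all 54 libraries were fitted with time point as a covariate. Single time points were fitted with their 18 libraries alone, and time was tested within each genotype (27 libraries, with line as a covariate in STAT6 MUT). For HLA-DMA and HLA-DMB, which failed the filter, the fit without it was used. Other genes that failed it were left out of the list counts, except where a count without the filter is given. Log2 CPM used a prior count of 2, and 95% intervals are those of the model. None of the 135 replicate pairs agreed within sampling noise (chi-square divided by its degrees of freedom, 1.07 to 3.98). Of the members, 6 rather than 10 had a row, so that 18 exact permutation tests were made. Intervals and floors cover counting error and the spread of these libraries only. The model step was tested on simulated counts.

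Alternatives covered scaling, the count filter, the tool (DESeq2 1.42.0, limma 3.58.1), depth, single replicates and lines, plate row, a random effect of culture, sums over time points, and the replicate number as a block. The members and lists were chosen with earlier results of these data known. The genes named were all members and, of each list, the called genes with up to the 3 largest fold changes in STAT6 MUT across time points, plus RFX5, RFXANK, RFXAP, HLA-DOA, HLA-DOB, and HLA-DRB5, and the genes most like the members (5 for their mean, 3 for CIITA). A gene that this rule would name is not reported here. Region genes were counted on GRCh38 with GENCODE. Figures were made in matplotlib 3.10.9 under Python 3.11.15.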

Additional observations from a re-analysis of the deposited data

Results flagged for a closer look

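CIITA at 8 h was lowest among the 9 STAT6 MUT libraries in D419N replicate 3, at 11.8 CPM, and stood apart from the nearest library at 22.1 CPM by more than the limit of Dixon's test. This value rested on 2 UMIs in a library of 161518 UMIs, the shallowest of all. Chance flags about 1 in 20 groups, and 24 groups were examined.

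CD74 differed among the 3 mutant lines in the joint test (adjusted p = 0.00225 in edgeR), where N421K was lowest and D419N highest. The level was 698 ± 61.9 CPM in N421K and 834 ± 75.9 CPM in D419N (SD, n = 9 each). Without replicate number 1, the adjusted p was 0.186.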

How the results depend on the processing

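Over 36 values of CD74 and CIITA and 598 alternatives, 569 kept their direction and their side of the threshold, 6 lost a call, 10 gained one, and 13 turned direction. CD74 in STAT6 MUT across time points was called in each of its 23 alternatives (-0.27 to -0.14). At 2 h, CD74 was called with DESeq2 size factors (-0.17), total counts only (-0.20), a mean count of at least 10 (-0.17), limma-voom (-0.18), plate row (-0.17), without the 8 shallow libraries (-0.20), and without D419N (-0.28). At 4 h it was not called without N421K (-0.19). DESeq2 called D419N against D419G (0.16). With the replicate number as a block, CD74 at 4 h was -0.28 and not called (adjusted p = 0.153), and no other call of CD74 or CIITA changed. No sign of pairing by number was seen. Of pairs of STAT6 WT and a mutant line with one number, 3 of 27 had a correlation over 0.1 (-0.30 to 0.24). With different numbers, 24 of 216 pairs did. The check covers only numbers that STAT6 WT and the mutant lines share, and a pairing under other numbers was not tested. The cause of these changes was not tested.

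Uncalled values near 0 turned direction. CD74 from 2 h to 8 h was 0.0195 (total counts only), 0.0116 (no filter), and 0.00488 (without shallow libraries) in STAT6 WT, and 0.071 (total counts only) and 0.000866 (limma-voom) in STAT6 MUT. CIITA at 8 h was 0.00246 without shallow libraries. HLA-DMA across time points was -0.233 with the replicate block, and HLA-DMB from 2 h to 8 h in STAT6 WT was 0.0146 (total counts only), 0.03 (limma-voom), and 0.0274 (without shallow libraries).

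With replicate numbers left out in turn, CD74 ranged from -0.21 to -0.12 at 2 h, -0.252 to -0.139 in D419G, and -0.296 to -0.239 for N421K against D419N, and its joint test from an adjusted p of 0.00572 to 0.186. CIITA from 2 h to 4 h in STAT6 MUT ranged from 0.668 to 1.09. The uncalled values that turned were CD74 from 4 h to 8 h (-0.0113 to 0.0286) and from 2 h to 8 h in STAT6 WT (-0.0341 to 0.0127) and in STAT6 MUT (-0.00607 to 0.00507), CIITA at 8 h (-0.0809 to 0.0337), for D419N against D419G (-0.208 to 0.0121), N421K against D419G (-0.142 to 0.0323), and N421K against D419N (-0.0324 to 0.126), and HLA-DMB from 2 h to 8 h in STAT6 WT (-0.287 to 0.219) and STAT6 MUT (-0.53 to 0.246).

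The number of genes called moved by over 1.5 times across time points (1237, and 586 without N421K), at 2 h (743, and 212 with the block), 4 h (342, and 78 with the block), and 8 h (127, from 31 with the block to 300 without number 1), in D419G (522, and 216 without number 1), D419N (267 and 139), N421K (1328 and 727), D419N against D419G (19, with 57 by DESeq2, 1 without number 1, and 0 by edgeR, or 1006 at an unadjusted p under 0.05, with counts summed over time points), N421K against D419G (128 and 34), N421K against D419N (182 and 37), the joint test (232 and 51), and the interaction (91, and 43 without N421K), and in STAT6 MUT from 2 h to 4 h (790, and 297 without number 3), 4 h to 8 h (1116, and 416 without number 2), and 2 h to 8 h (3193, and 2063 without number 3). Where a line or number is left out, fewer libraries enter the fit.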

Other observations

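Over time, the genes around the class II pathway moved in both directions. From 2 h to 8 h, RFX5, the DNA-binding subunit of the RFX complex, rose from 40.0 ± 3.62 to 53.3 ± 6.78 CPM in STAT6 WT (SD, n = 9 each, log2 fold change 0.43, adjusted p = 0.000481, edgeR) and from 35.9 ± 5.94 to 45.6 ± 9.07 CPM in STAT6 MUT (0.34, adjusted p = 0.0173). CD83 fell from 657.8 ± 44.4 to 198 ± 36.1 CPM in STAT6 WT (log2 fold change -1.79, adjusted p = 1.23e-30) and from 598.7 ± 70.5 to 303.1 ± 74.8 CPM in STAT6 MUT (-1.08, adjusted p = 9.85e-15). IRF4 fell from 17.4 ± 3.79 to 3.76 ± 2.72 CPM in STAT6 WT (-2.29, adjusted p = 2.38e-12) and from 27.6 ± 6.27 to 8.94 ± 7.10 CPM in STAT6 MUT (-1.68, adjusted p = 7.46e-09).

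In STAT6 WT, 2 genes were higher and 2 lower at 8 h among 13 of the promoter complex, 2 and 5 among 12 regulators of CIITA, 4 and 1 among 9 of processing, and 3 and 2 among 12 of traffic, where 30.7% of all genes were called. Of 4 co-stimulatory genes 3 were lower, and of 8 B cell markers 6 were higher. In STAT6 MUT, the numbers were 2 and 2 of 13, 4 and 4 of 12, 5 and 1 of 10, and 3 and 2 of 12, where 34.1% were called, with 1 higher and 1 lower of 5 co-stimulatory genes and 6 of 8 B cell markers higher. Time and plate row cannot be told apart in these values.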
